A study of Capra hircus with 18 samples.

Results

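Blood RNA of transported and penned goats was examined for 7 genes that glucocorticoids are known to induce: *TSC22D3*, *SGK1*, *DDIT4*, *TXNIP*, *BTG1*, *PRDM1* and *NFKBIA*. They were taken by gene name from the deposited tables, which list 1557 different genes in all, 430 in the comparison of 30 min of transport with control and 1247 in the comparison of 180 min of transport with control. All 7 were listed at 30 min, and *SGK1*, *DDIT4* and *PRDM1* were also listed at 180 min. A gene is in a table only where the authors' own test on the same goats gave it an unadjusted p under 0.05, so being listed is itself a selection, and every test given here is made among genes that had already been selected. *TSC22D3*, *TXNIP*, *BTG1* and *NFKBIA* at 180 min were therefore not analysed here.

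The animals were uncastrated male Spanish goats aged 8 months, kept without feed from the evening before. The control goats (n = 7) stayed in pens, the 30 min goats (n = 4) travelled about 50 km in a livestock trailer, and the 180 min goats (n = 7) travelled about 200 km. Blood for RNA was drawn after transport, with 1 library per goat, and goats are named by the number in their label. The trips took place on 2 cold days, and the labels do not tell which goat travelled on which day, so a difference between the days was not tested. Depth, computed as the library size behind the deposited FPKM (fragments scaled to gene length and to library size), ran from 10443023 to 39473244 in control goats, from 13992574 to 22855051 at 30 min and from 11290309 to 34125715 at 180 min. Goat 10 stood apart at 180 min, with 26.2% of its library on the genes listed at 180 min against 7.93 to 14.3% in the other goats of its group, and it had the lowest depth of that group.

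Cortisol, the main glucocorticoid of goats, is released by the adrenal gland during stress, enters cells and binds the glucocorticoid receptor. The receptor then moves to the nucleus, binds DNA and raises or lowers the transcription of its target genes. In white blood cells its targets include inhibitors of inflammatory signalling, kinases, brakes on growth and metabolism, and regulators of lymphocyte fate, and glucocorticoids also move neutrophils into the circulation and lymphocytes out of it. In whole blood, fewer cells of a type and less RNA per cell cannot be told apart. The comparisons with control address which genes of the blood differ after a short and after a longer trip.

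Of the 7 genes, 4 rose at 30 min with edgeR, where limma at a pseudocount of 0.1 or 1 called 1 (*NFKBIA*) and DESeq2 all 7. *NFKBIA* was 3.24-fold, *DDIT4* 3.01-fold, *SGK1* 2.47-fold and *TSC22D3* 1.88-fold higher in the mean normalized count (reads divided by a size factor for each goat), and in each of these 4 genes all 4 transported goats were above all 7 control goats. *TXNIP*, *BTG1* and *PRDM1* had higher means, but did not pass the test and overlapped with control. The call is an adjusted p under 0.05 in edgeR's quasi-likelihood test, adjusted by Benjamini-Hochberg over the 430 listed genes. By this rule 23 of the 430 genes, 5.35%, were called higher, and 28 of the 430, 6.51%, had every transported goat above every control goat. No listed gene was called lower by edgeR, although 193 were lower and 111 higher at an unadjusted p under 0.05, and DESeq2 called 116 higher and 238 lower. The median edgeR log2 fold change was 1.01 over the 7 genes and -1.10 over all 430, of which 29.5% were higher. The 7 genes were chosen with earlier results of these data known, so medians set beside those of all listed genes are descriptions.

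**Figure D1:**
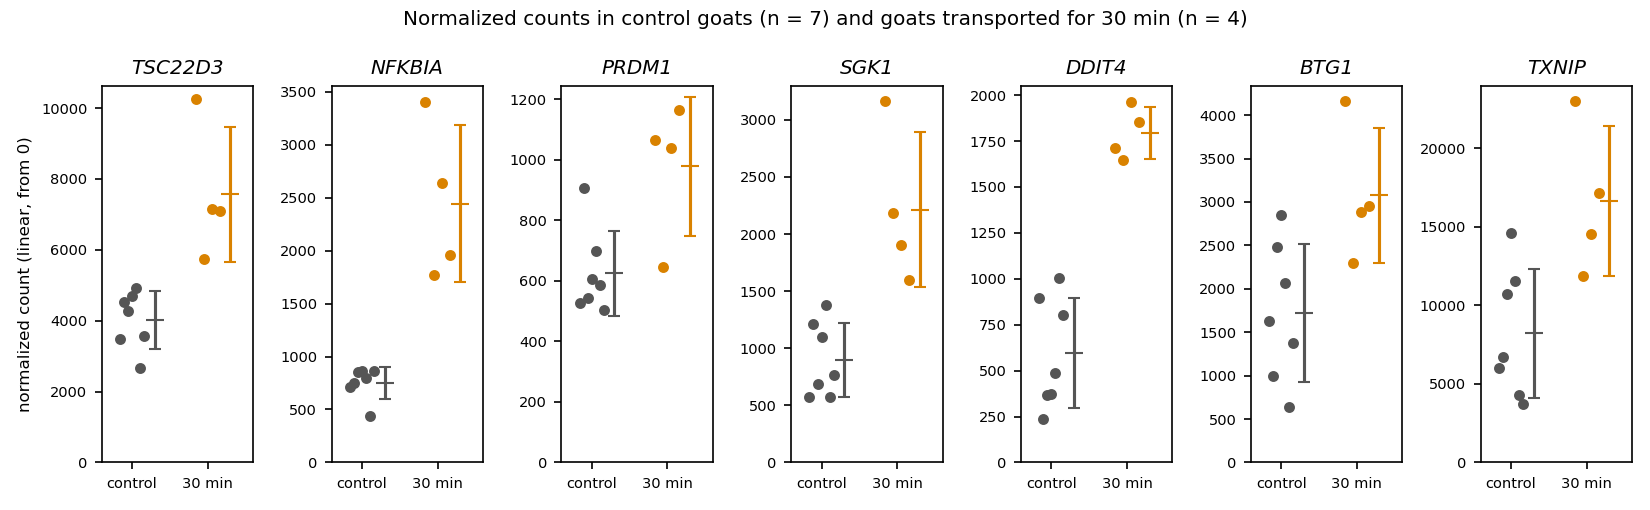
Normalized counts of the 7 genes in each control goat (grey, n = 7) and each goat transported for 30 min (orange, n = 4), on linear axes from 0; the bar beside the points is the mean ± SD. In *TSC22D3*, *NFKBIA*, *SGK1* and *DDIT4* the orange points all lie above the grey ones, and in *PRDM1*, *BTG1* and *TXNIP* they overlap.

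*TSC22D3* (ENSCHIG00000000462, positions 13329 to 79257 on the plus strand of the unplaced scaffold LWLT01000111.1, in the coordinates of the tables) encodes GILZ, a leucine zipper protein that carries part of the anti-inflammatory action of glucocorticoids. Its normalized count was 10242 in goat 21, 5744 in goat 22, 7151 in goat 24 and 7106 in goat 27, and the control goats ran from 2651 through a median of 4272 to 4908. The lowest transported goat was thus above the highest control goat. Means were 7561 ± 1903 (SD, n = 4) and 4019 ± 807 (SD, n = 7), a log2 fold change of 0.91 (standard error 0.23, edgeR adjusted p = 0.0359). The exact two-sided permutation test over goats gave p = 0.00303, the smallest that 4 against 7 goats can give. The call was the least firm of the 4, as the adjusted p of edgeR was above 0.05 when any of 6 goats was left out (30 min goats 21, 24 and 27 and control goats 1, 4 and 9) and reached 0.114 without goat 21.

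*NFKBIA* (ENSCHIG00000010157, chromosome 21, 45051852 to 45054610, minus strand) encodes IκBα, which holds NF-κB in the cytoplasm and is also induced by NF-κB itself. It had 3406, 1774, 2639 and 1959 normalized counts in goats 21, 22, 24 and 27. Control goats lay between 437 and 863 with a median of 795, so that the lowest transported goat was above the highest control goat with a wide gap. The means were 2445 ± 741 (SD, n = 4) after transport and 754 ± 151 (SD, n = 7) in control, and the log2 fold change of 1.70 (standard error 0.23) had an adjusted p of 0.00141 in edgeR, with an exact permutation p of 0.00303. It was the only one of the 4 whose call held with every single goat left out, with an edgeR adjusted p of at most 0.0108. Its edgeR change was the highest of the 7 genes with all goats in the fit, but *DDIT4* was above it with limma, TMM and median centring and without goat 21 (1.61 against 1.49) or control goat 1 or 8.

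*SGK1* (ENSCHIG00000010215, chromosome 9, 59391170 to 59505794, minus strand) encodes the serum and glucocorticoid regulated kinase, a relative of AKT that acts on ion transport and FOXO factors. Goats 21, 22, 24 and 27 had 3167, 2185, 1903 and 1597 normalized counts. The control goats spanned 570.4 to 1381 with a median of 767, below all transported goats. The log2 fold change was 1.30 (standard error 0.28, edgeR adjusted p = 0.0188, exact permutation p = 0.00606). With limma at a pseudocount of 1 it did not pass (adjusted p = 0.0757). Without goat 21 or goat 24 it was 1.08 or 1.37, with edgeR adjusted p of 0.0825 and 0.0521.

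*DDIT4* (ENSCHIG00000011855, chromosome 28, 17294525 to 17296086, minus strand) encodes REDD1, which restrains mTORC1, the kinase complex that drives growth. It had 1711, 1646, 1963 and 1851 normalized counts in goats 21, 22, 24 and 27, a coefficient of variation of 7.94%. The control goats ranged from 236 through a median of 488 to 1006, a coefficient of variation of 50.5%. All 4 transported goats were above the highest control goat, and the log2 fold change was 1.59 (standard error 0.34, edgeR adjusted p = 0.0188, exact permutation p = 0.00606). With limma at a pseudocount of 1 it did not pass (adjusted p = 0.0542). Leaving out goat 21 or goat 24 gave 1.61 and 1.54, with edgeR adjusted p of 0.0550 and 0.0598.

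*TXNIP* (ENSCHIG00000017689, chromosome 3, 99144787 to 99147253, minus strand) encodes an α-arrestin that binds thioredoxin and limits glucose uptake, and it also responds to glucose. It had 22991, 11836, 14516 and 17176 normalized counts in goats 21, 22, 24 and 27 and 3705 to 14599.6, with a median of 6725, in control goats. Goats 22 and 24 were below control goat 6, so the groups overlapped. Its log2 fold change of 1.01 (standard error 0.36) had an edgeR adjusted p of 0.0673 and an exact permutation p of 0.0273, and it passed with DESeq2 (adjusted p = 0.0363).

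*BTG1* (ENSCHIG00000012095, chromosome 5, 21794779 to 21796243, minus strand) encodes an antiproliferative protein that helps keep lymphocytes quiescent. It had 4159, 2301, 2881 and 2955 normalized counts in goats 21, 22, 24 and 27. Control goats ran from 642 through 1634 to 2851, and goat 22 lay within that range while goat 24 was just above it. Its log2 fold change was 0.84 (standard error 0.34, edgeR adjusted p = 0.0673, exact permutation p = 0.0455), and it passed with DESeq2 (adjusted p = 0.0451).

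*PRDM1* (ENSCHIG00000023368, chromosome 9, 31108834 to 31132138, minus strand) encodes BLIMP-1, a repressor that drives B cells to plasma cells and acts in T cells and myeloid cells. It had 1064, 644, 1038 and 1165 normalized counts in goats 21, 22, 24 and 27, with control goats from 504 through 587 to 908. Goat 22 was within the control range, and the other transported goats were above it. The log2 fold change was 0.65 (standard error 0.23, edgeR adjusted p = 0.0673, exact permutation p = 0.0121), and it passed with DESeq2 (adjusted p = 0.0363).

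Across the genes at 30 min, goat 21 was the highest of its group in 5 of the 7 genes, and goat 22 the lowest in 6 of the 7. Among control goats, goat 6 was highest in 3 genes and goat 7 in 2, and goat 8, the library with the fewest reads, was lowest in 3 (*TSC22D3*, *BTG1* and *NFKBIA*) and highest in 1 (*DDIT4*).

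**Figure D2:**
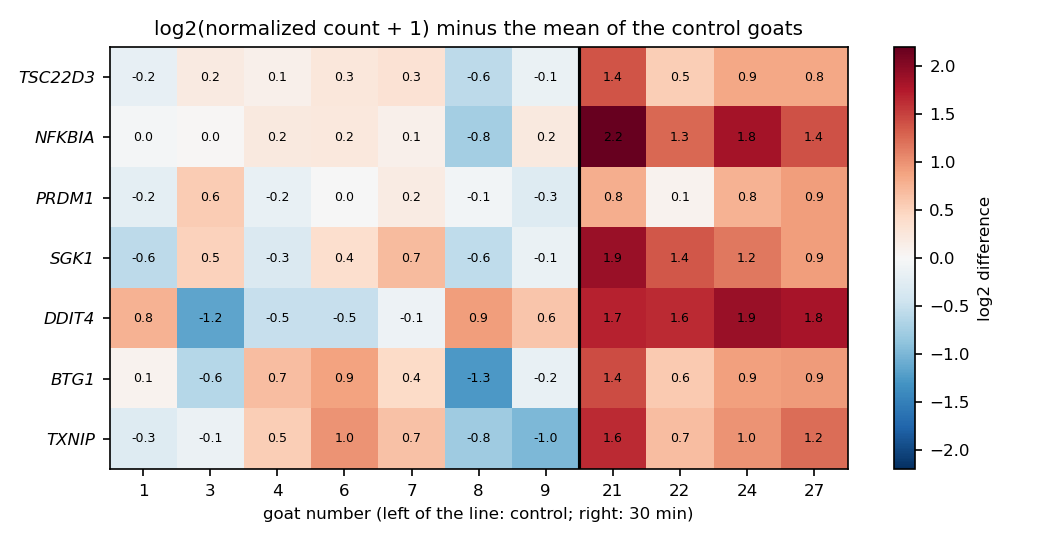
The log2(normalized count + 1) of each gene (rows) in each goat (columns) minus the mean of the 7 control goats, from blue (lower) to red (higher); the line separates control goats from the goats transported for 30 min. All 28 cells right of the line are above 0, from 0.07 for *PRDM1* in goat 22 to 2.21 for *NFKBIA* in goat 21, and *DDIT4* runs from -1.16 in goat 3 to 0.93 in goat 8 within the control goats.

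Within the control goats, *DDIT4* ran against the other genes. Its Pearson correlation with each of the other 6 was below 0, and 13 of all 21 pairs among the 7 genes were above 0. For *TSC22D3* and *SGK1* over the 7 control goats, r was 0.83 (exact permutation p = 0.0192) and rho 0.89 (exact permutation p = 0.0123), and r was 0.76 without the 2 goats farthest from the median of *TSC22D3*. For *TSC22D3* and *DDIT4* r was -0.81 (exact permutation p = 0.0276) and rho -0.68 (exact permutation p = 0.110), and r was -0.63 without 2 goats. None of the 21 pairs passed adjustment, and both of these pairs had an adjusted p of 0.142 for r by the exact permutation test. Other pairs with an r of similar size did not all hold when 2 goats were left out. For *TSC22D3* and *NFKBIA* r went from 0.80 to -0.46, for *BTG1* and *NFKBIA* from 0.81 to 0.40, and for *TSC22D3* and *TXNIP* from 0.79 to 0.85.

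At 180 min, *DDIT4* and *PRDM1* rose, and *SGK1* passed the model test but not the test over goats. *DDIT4* was 2.93-fold higher in the mean, with all 7 transported goats above all 7 control goats. *PRDM1* was 2.06-fold and *SGK1* 2.82-fold higher in the mean, and both overlapped with control. All 3 had an edgeR adjusted p under 0.05, where 456 of the 1247 listed genes, 36.6%, were called higher and 211 lower (148 higher and 345 lower with TMM over the listed genes, 148 and 223 after median centring, with 1 of the 3 genes called, *DDIT4*, under both), and *DDIT4* was 1 of the 23 of 1247, 1.84%, whose transported goats were all above the control goats. The median edgeR log2 fold change was 1.49 over the 3 genes and 0.77 over the 1247. These goats were compared with the same 7 control goats as the 30 min goats, so the comparisons are not independent of each other.

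**Figure D3:**
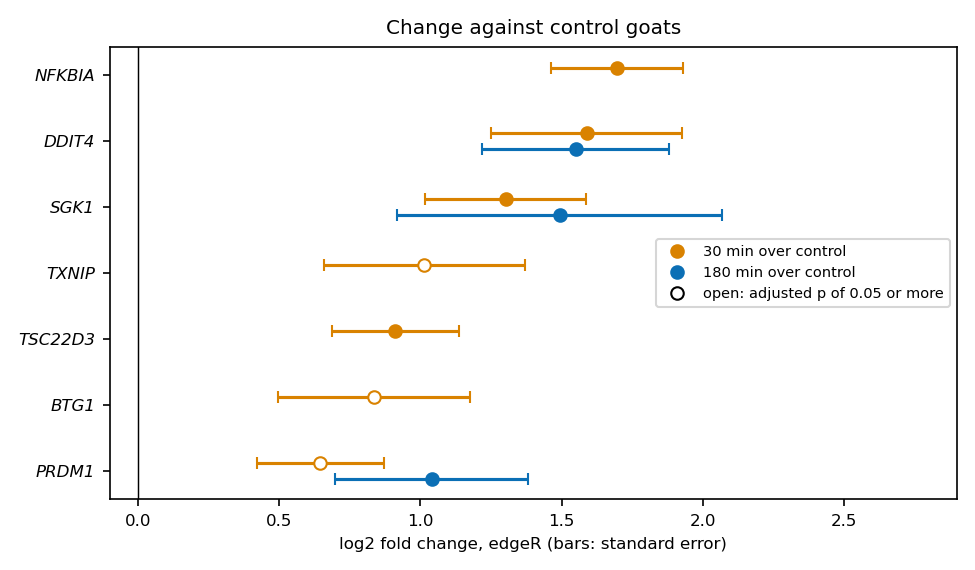
Log2 fold change against control from edgeR, with its standard error, at 30 min (orange) and at 180 min (blue); filled points have an adjusted p under 0.05 and open points do not. All 10 points lie above 0, from 0.65 for *PRDM1* to 1.70 for *NFKBIA*, both at 30 min.

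*DDIT4* had 1214 normalized counts in the lowest goat at 180 min, 2241 in the median goat and 2631 in the highest, against 247, 579 and 1043 in the control goats under the size factors of that table. The lowest transported goat was above the highest control goat. Means were 1915 ± 638 (SD, n = 7) and 654 ± 302 (SD, n = 7), with a log2 fold change of 1.55 (standard error 0.33, edgeR adjusted p = 0.0154). The exact permutation p was 0.000583, the smallest that 7 against 7 goats can give. The call held with each goat left out, with edgeR adjusted p of at most 0.0406.

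*PRDM1* ran from 560.2 through 978 to 3044 normalized counts at 180 min and from 532 through 652 to 952 in control goats. Goats 10, 14, 15 and 16 were above all control goats, and goats 11, 13 and 17 were within their range. The log2 fold change was 1.04 (standard error 0.34, edgeR adjusted p = 0.0385, exact permutation p = 0.0315). Its edgeR adjusted p went above 0.05 when goat 15 or 16 or control goat 1, 4, 6 or 8 was left out, up to 0.0610 without control goat 1, and the change itself fell to 0.74 without goat 15.

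*SGK1* spread more than any other of these genes. It had 212 normalized counts in goat 10, 648 in goat 11, 1456 in goat 13, 3968 in goat 14, 7256 in goat 15, 4834 in goat 16 and 1527 in goat 17, while control goats ran from 595 through 819 in the median goat to 1638. Goat 10 was below all control goats, goats 14, 15 and 16 were above all of them, and the other 3 goats were within their range. The highest goat had 34.3 times the count of the lowest, and the coefficient of variation was 90.9% against 39.7% in control. The log2 fold change of edgeR, which compares mean counts, was 1.49 (standard error 0.57, adjusted p = 0.0458). The difference of mean log2(normalized count + 1) was 0.86, with an exact permutation p of 0.254. Without goat 10 the edgeR change was 1.70 (adjusted p = 0.0252), and without goat 15 it was 1.06 (adjusted p = 0.0860). The edgeR adjusted p also went above 0.05, up to 0.0704, when goat 11, 14 or 16 or control goat 1, 4, 6, 7, 8 or 9 was left out.

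Goat 15 had the highest normalized count of its group in all 3 genes, while on the FPKM scale goat 10 was above it for *DDIT4* (97.8 and 94.1 FPKM). Leaving out goat 10 left all 3 genes called, with edgeR log2 fold changes of 1.47 for *DDIT4* and 1.11 for *PRDM1* (adjusted p = 0.0128 and 0.0329).

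On the FPKM scale, which is per gene length and the same in both tables, the 30 min and 180 min groups were compared directly. *DDIT4* was at 24.5 ± 12.2 FPKM (SD, n = 7) in control goats, 76.3 ± 6.42 (SD, n = 4) at 30 min and 73.0 ± 23.5 (SD, n = 7) at 180 min. *SGK1* was at 9.55 ± 3.50, 24.4 ± 7.49 and 27.1 ± 23.6 FPKM in the same order, and *PRDM1* at 5.49 ± 1.19, 8.91 ± 2.07 and 11.4 ± 6.43. The 30 min goats lay within a narrower range than the 180 min goats in all 3 genes. A range over 4 goats tends to be narrower than one over 7, and the difference in spread was not tested. The *DDIT4* FPKM of the 30 min goats were 69.9 to 84.6, and 3 goats of the 180 min group were above and 3 below that range. For *SGK1* the 30 min range was 17.4 to 34.8 FPKM, with 3 goats of the 180 min group above it and 4 below.

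None of the 3 genes differed detectably between the trips. The difference of 180 min minus 30 min on log2(FPKM + 1) was -0.13 for *DDIT4* (limma 95% confidence interval -0.68 to 0.43, exact permutation p = 0.600). It was 0.20 for *PRDM1* (-0.62 to 1.02, exact permutation p = 0.615) and -0.40 for *SGK1* (-2.13 to 1.34, exact permutation p = 0.655). The limma adjusted p was 0.991 for each. The sign of the *SGK1* difference turned without goat 10 (0.036) and with edgeR on the counts (0.15), and its interval leaves room for several-fold differences in either direction. Of the 120 genes in both tables, limma called 0, which is 0%, and edgeR 0, with 6 at an unadjusted limma p under 0.05.

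**Figure D4:**
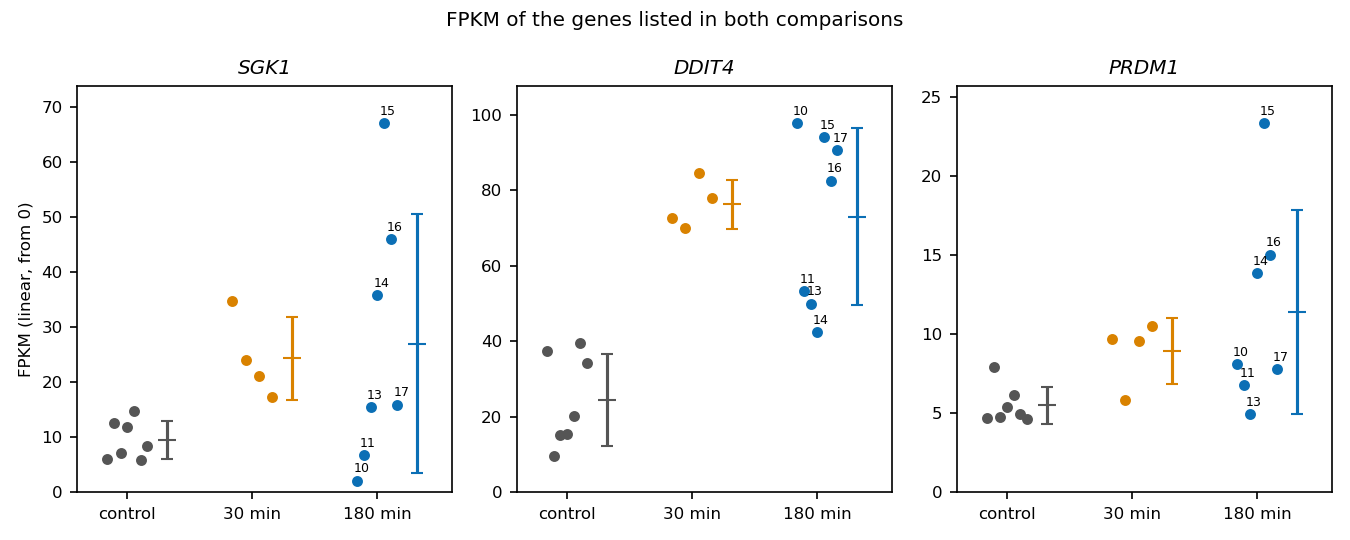
FPKM of *SGK1*, *DDIT4* and *PRDM1* in each control goat (grey, n = 7), each goat transported for 30 min (orange, n = 4) and each goat transported for 180 min (blue, n = 7, with goat numbers), on linear axes from 0; bars are the mean ± SD. The *SGK1* points at 180 min reach from 2.12 in goat 10 to 67.1 in goat 15, and the 30 min *DDIT4* points from 69.9 to 84.6.

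In level, *TXNIP* was the highest of the 7 genes, at 371 ± 187 FPKM (SD, n = 7) in control goats and 775 ± 221 (SD, n = 4) at 30 min. *TSC22D3* followed with 187 ± 38.5 and 363 ± 91.5 FPKM, and *BTG1* with 178 ± 82.8 and 327 ± 82.8. *NFKBIA* stood at 42.4 ± 9.13 FPKM in control goats and 142 ± 43.4 at 30 min. *DDIT4*, *SGK1* and *PRDM1* came last, in this order and with the FPKM given above. The order of mean FPKM was the same in both groups. *TSC22D3* and *BTG1* were not separated in control, where only 4 of the 7 goats had the FPKM of *TSC22D3* above that of *BTG1*. All 4 goats at 30 min had all 7 genes in the order of the means. At 180 min *DDIT4* was above *SGK1* in all 7 goats, and *SGK1* above *PRDM1* in 5 of 7.

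Markers of blood cell types were examined beside these genes, since the receptor's targets are not equally active in all white cells. The marker lists were also chosen with earlier results of these data known. For both trips, their shares set beside those of all listed genes are therefore descriptions. All 5 listed B cell markers of 15 had lower means at 30 min, where 29.5% of all 430 listed genes had a log2 fold change above 0. Of these 5 markers, 0 were called by edgeR and 5 by DESeq2 (which called 238 of all 430 lower). When each goat was centred on its median listed gene, 2 of the 5 turned higher. Their summed normalized count was 8570.2 to 12061 at 30 min and 8975 to 28768 in control. They ran from *VPREB3*, a pre-B cell receptor component, at a log2 fold change of -1.15 to *MS4A1*, which encodes CD20, at -0.44 (edgeR adjusted p = 0.0682 for both). Control goats 8, 9 and 1 had the highest B cell sums (28768, 25792 and 18753) and also the highest *DDIT4* (1006, 805 and 897 normalized counts). Of 12 NK cell markers, 1 was listed, *NCR3*, at -1.01 (edgeR adjusted p = 0.0673), and it passed with DESeq2. None of the T cell (20), monocyte (11), eosinophil (9), red cell (15) or platelet (11) markers was listed at 30 min. The part of these cell types in the changes of the 7 genes at 30 min was not tested.

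At 180 min, 8 of 24 neutrophil markers were listed and all 8 rose, from *CSF3R*, the receptor of granulocyte colony-stimulating factor, at a log2 fold change of 0.81 to *ALPL* at 3.44 (edgeR adjusted p = 0.0456 and 0.0239), while 4 of the 8 passed with limma at a pseudocount of 0.1 or with TMM. Over all 1247 listed genes edgeR called 36.6% higher and 16.9% lower. The neutrophil markers' summed normalized count was 94252 to 200345 at 180 min and 34617 to 107505 in control, with the highest sum in goat 10. Of 20 T cell markers 7 were listed, all with lower means, and 6 of them fell, with a summed count of 4583 to 9784 at 180 min and 8663 to 16912 in control. *CD6* was at -0.54 (edgeR adjusted p = 0.0455), and *CD3G*, at -1.09, was the one that did not pass (edgeR adjusted p = 0.0597), and 2 of the 7 passed with limma at a pseudocount of 0.1. All 3 listed monocyte markers of 11 rose, from *CSF1R* at 0.89 to *CD163* at 1.95 (edgeR adjusted p = 0.0353 and 0.0182), and 1 of the 3 passed with TMM. The monocyte sums were highest in goats 15 and 16, at 31348 and 24946, which were also the goats with the highest *SGK1* and *PRDM1* of the group. Of the other lists, *MS4A1* was at -0.51 and did not pass with edgeR but did with DESeq2 and TMM, *NKG7* of NK cells rose by 0.85 but did not pass with TMM, and *ADGRE1* of eosinophils was at 1.49 and did not pass with edgeR but did with limma and DESeq2. Of the platelet markers *SELP*, with no control goat above 10.8 normalized counts, passed with edgeR and *GP1BB* at 1.74 did not, and neither passed with limma at a pseudocount of 0.1 or 1. The summed platelet count at 180 min was 20227.5 in goat 10 and 517 to 3069 in the other goats. In control goats it was 166 to 3269, so goat 10 alone stood above them. The red cell list had no gene in either table. The part of these shifts in the values of *SGK1*, *DDIT4* and *PRDM1* was not tested.

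Other genes known to be induced by glucocorticoids were taken from a list of 46, which includes the 7 described so far. The list was chosen with earlier results of these data known. For both trips, its shares set beside those of all listed genes are therefore descriptions and not independent evidence. Of the other 39, 8 were listed at 30 min, all with higher means, and 5 of these rose, where 29.5% of the 430 listed genes had a log2 fold change above 0 and 5.35% were called higher. *CEBPB*, a transcription factor of myeloid cells, had a log2 fold change of 1.45 and *GADD45A*, a growth arrest gene, 1.42 (edgeR adjusted p = 0.00345 for both). *CXCR4*, the receptor that holds leukocytes in the bone marrow, changed by 1.15, *GLUL*, glutamine synthetase, by 1.16, and *DUSP1*, a phosphatase that switches off MAP kinases, by 1.09 (edgeR adjusted p = 0.00839, 0.0359 and 0.0384). *CXCR4* ran from 3249 to 3708 normalized counts at 30 min and from 983 to 1992 in control. *PFKFB3*, a regulator of glycolysis, was at 1.17, *CRISPLD2* at 0.71 and *ZFP36*, which destabilises cytokine mRNAs, at 0.47, and these 3 did not pass (edgeR adjusted p = 0.0673, 0.0635 and 0.0673). The median log2 fold change of the 8 genes was 1.15. All 8 stayed above 0 under every test and scaling tried, and the number called ran from 3 with limma to 8 with DESeq2.

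At 180 min, 12 of the 39 were listed, all with higher means, and 9 of these rose, where 59.3% of the 1247 listed genes had a log2 fold change above 0 and 36.6% were called higher. *IL1R2*, the decoy receptor that neutralises interleukin 1, was the highest, from 30.9 to 240 normalized counts in control goats to 279.5 to 8701 after transport, a log2 fold change of 4.89 (standard error 0.71, edgeR adjusted p = 0.00155), with no overlap between the groups. *PFKFB3* rose by 2.67, *THBD*, thrombomodulin, by 2.17 and *GLUL* by 1.90. *CD163*, the haemoglobin scavenger receptor, rose by 1.95, which is the same result as given above for it as a monocyte marker. *BCL6*, a repressor that opposes *PRDM1* in B cells, rose by 1.59, *PER1*, a clock gene, by 1.59, *GADD45A* by 1.47 and *CEBPD* by 1.47. The edgeR adjusted p of these 8 genes ran from 0.0148 for *GLUL* to 0.0475 for *THBD*. *CEBPB* was at 1.40, *DUSP1* at 1.25 and *CRISPLD2* at 1.05, and these 3 did not pass (edgeR adjusted p = 0.0536, 0.0648 and 0.0514). The median of the 12 was 1.59, and all 12 stayed above 0 under every test and scaling tried, with 4 called by limma at a pseudocount of 0.1 and 12 by DESeq2. As with *SGK1*, goats differed widely at 180 min, with *DUSP1* at 121 to 8167 and *CEBPB* at 347 to 16345 normalized counts. Apart from *IL1R2*, all of the 12 genes overlapped with control. *PFKFB3* ran from 649 to 15147, and control goats from 161 to 1319. *GADD45A* ran from 119 to 2190, with its lowest goat below all control goats, at 224 to 402. The other genes of the list, including *FKBP5*, which encodes a chaperone of the receptor, were in neither table and were not analysed here.

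**Figure D5:**
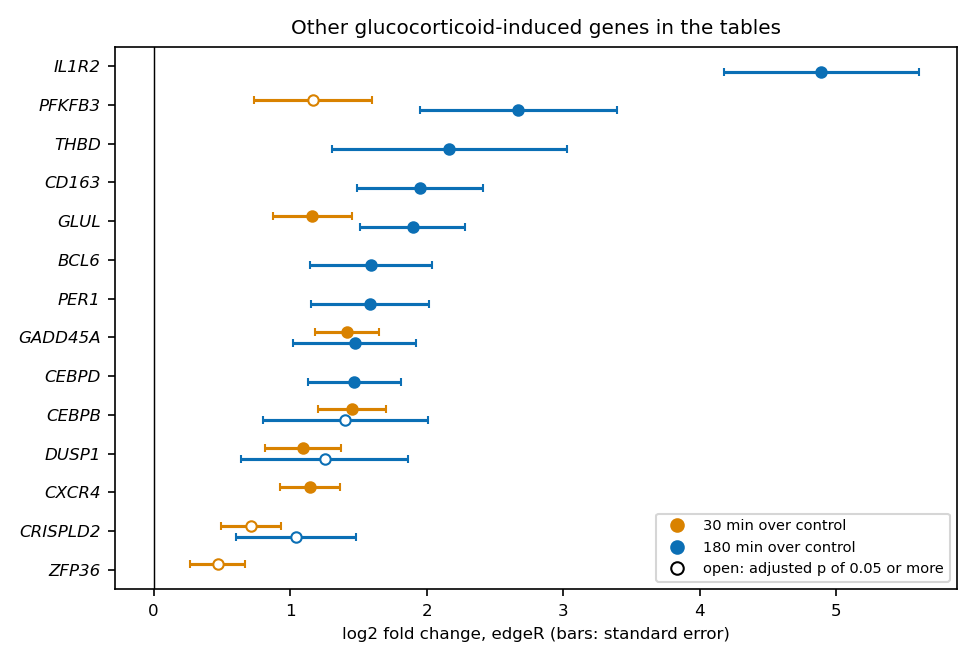
Log2 fold change against control (edgeR, with standard error) of the 14 other glucocorticoid-induced genes found in a table, at 30 min (orange) and at 180 min (blue); filled points have an adjusted p under 0.05. All 20 points lie above 0, from 0.47 for *ZFP36* at 30 min to 4.89 for *IL1R2* at 180 min.

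Few relatives and partners of the 7 genes were listed. None of the 16 genes of the receptor and its chaperones was in either table. *ARRDC4*, an α-arrestin like *TXNIP*, was at a log2 fold change of 0.77 at 30 min (edgeR adjusted p = 0.0673) and rose by 0.93 at 180 min (edgeR adjusted p = 0.0480). Around NF-κB, *TNIP3* was at -2.80 at 30 min on few reads (edgeR adjusted p = 0.0673), and at 180 min *TNIP1*, an inhibitor of the pathway, rose by 1.19 and *OTULIN*, a linear deubiquitinase, fell by 0.73 (edgeR adjusted p = 0.0411 and 0.0353). Among genes that restrain mTORC1, as *DDIT4* does, *AKT1S1* was at -1.10 at 30 min and did not pass (edgeR adjusted p = 0.0746), *SESN2* rose by 1.17 at 180 min (edgeR adjusted p = 0.0460), and *DEPTOR* was at 1.13 and did not pass (edgeR adjusted p = 0.108). At 30 min *ARRDC4* passed with DESeq2 and with median centring, and *TNIP3* passed with DESeq2. At 180 min *ARRDC4* and *SESN2* did not pass with limma, median centring or TMM, nor *TNIP1* with limma at a pseudocount of 0.1 or 1, median centring or TMM. *FOXO1*, a factor that SGK1 phosphorylates, was at -0.64 at 180 min and did not pass with edgeR (adjusted p = 0.0584) but did with DESeq2 and TMM. No gene of the BTG/TOB and CCR4-NOT list other than *BTG1*, and no relative of *TSC22D3*, was in either table.

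The genes whose goat-to-goat pattern was most like each of the 7 were found from the deviations of log2(normalized count + 1) from the group means, over the 11 goats of the 30 min table and 241 named genes. These correlations share libraries and depth and are a description. *TXNIP* was close to *STEAP4*, a metalloreductase (r = 0.91). *BTG1* was closest to *SRGN*, the granule proteoglycan serglycin (0.92), and *RASGEF1B* (0.89). *TSC22D3* was closest to *CD53*, a tetraspanin of leukocytes (0.90), and *JUN*, a component of AP-1 (0.88). *NFKBIA* was closest to *JUN* (0.89) and *TSC22D3* (0.85), and *SGK1* to *FLOT2* (0.82) and *TSC22D3* (0.77). *DDIT4* was closest to *ID3* (0.80) and *HYAL3* (0.76), and both of these had lower means at 30 min, at log2 fold changes of -1.14 and -1.32 that did not pass (edgeR adjusted p = 0.0673 for both). *PRDM1* had the lowest top values, with *OSBPL2* and *PTX3* (both 0.70). The 14 goats of the 180 min table gave other neighbours over 774 named genes. *SGK1* was closest to *MARCKS* (0.96) and *PTAFR*, the receptor of platelet-activating factor (0.95), and *PRDM1* to *FAM129A* (0.96) and *RAB3D* (0.92). *DDIT4* had no neighbour above 0.65, the value for *PHKA2* and *RIC8A*.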

How the data were processed

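Blood RNA of 18 goats was sequenced after poly-T selection and removal of globin mRNA. The authors cleaned reads with fastp and mapped them with HISAT2. The counting tool and genome build are not given in the sources used here, so coordinates are those of the tables. The deposited counts are whole reads per gene and goat. The deposited normalized counts (signal) are counts divided by 1 size factor per goat and table. The deposited FPKM are counts per gene length and effective library size. The authors' log2 fold changes and p-values compare transported with control goats. Their unadjusted p-values were read only to find what the tables were filtered on, and their log2 fold changes and adjusted p-values were not used.

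Counts were tested with edgeR 4.0.16 (quasi-likelihood, deposited size factors, Benjamini-Hochberg over all listed genes). Listed genes had already passed an unadjusted p under 0.05 on the same goats. The adjusted p-values therefore order the listed genes and are not error rates, within the list or beyond it. The standard error is the size of the log2 fold change divided by the square root of F. Exact two-sided permutation tests compared mean log2(normalized count + 1) over 330 splits at 30 min and 3432 at 180 min. The trips were compared with limma 3.58.1 on log2(FPKM + 1). DESeq2 1.42.0 was an alternative, with R 4.3.3, Python 3.11.15, scipy 1.17.1 and pandas 2.3.3. The fits were tested on simulated data. Reads are not independent molecules, and the depth gives counting error only. Nothing in the sources says whether the goats of a group shared a pen or trailer compartment.

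The 7 genes and all lists were chosen with earlier results of these data known. Named are the 7 genes, all listed genes of the glucocorticoid-induced list, the highest and lowest of each other list, and the 2 genes most like each of the 7 (among named genes whose mean normalized count was 10 or more). Further genes of a list are named in a few places, chosen after their values were seen. No promoter or protein sequence was used here, and the planned promoter motif search was not run. A few genes that these rules would name are not reported here.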

Additional observations from a re-analysis of the deposited data

Results flagged for a closer look

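One value among the 17 groups of 4 or 7 goats tested for a goat far from the others stood out, and chance gives about 1 in 20. *NFKBIA* in control goat 8 was at 437 normalized counts, where the nearest control goat had 716, a gap of 0.655 of the whole range, above Dixon's 95% critical value for 7 goats. Goat 8 had the fewest reads of the control goats and the highest B cell marker sum at 30 min, 28768. With goat 8 left out, *NFKBIA* was still called at 30 min.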

How the results depend on the processing

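All differences of the 7 genes against control stayed above 0 in the 19 settings at 30 min and the 22 at 180 min, but their calls did not all hold. Of the 7 genes, 4 were called at 30 min with edgeR, 1 with limma at a pseudocount of 0.1 or 1, and 7 with DESeq2 or median centring. With limma, *TSC22D3* did not pass at a pseudocount of 0.1, 1 or 10 (0.91 in each), nor *SGK1* (1.34 in both) and *DDIT4* (1.76 in both) at 0.1 or 1, and with TMM *TSC22D3* did not pass at 1.11. *TXNIP*, *BTG1* and *PRDM1* passed with DESeq2 (1.01, 0.84 and 0.65) and after median centring (1.82, 1.65 and 1.33). *NFKBIA* passed in all 19. Genes called higher at 30 min were 23 with edgeR, 6, 8 and 14 with limma at pseudocounts of 0.1, 1 and 10, 118 after median centring and 116 with DESeq2. Genes called lower were 0 with edgeR, 1 and 2 with limma at pseudocounts of 1 and 10, 3 after median centring, 238 with DESeq2, and 1 each with effective library sizes, TMM and a mean normalized count of 10 or more.

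At 180 min 3 of 3 genes were called with edgeR and 1, *DDIT4*, with limma at each pseudocount, median centring and TMM. *SGK1* then stood at 0.86 with limma at each pseudocount, 0.67 after centring and 1.16 with TMM, and *PRDM1* at 0.84 with limma at pseudocounts of 0.1, 1 and 10, 0.66 after centring and 0.67 with TMM. Genes called higher were 456 with edgeR, 131, 207 and 287 with limma, 148 after centring, 148 with TMM and 716 with DESeq2. Genes called lower were 211 with edgeR, 40 and 89 with limma at pseudocounts of 0.1 and 1, 345 with TMM and 472 with DESeq2. Between the trips 0 of 120 genes were called in every setting, and the *SGK1* difference reversed from -0.40 to 0.15 with edgeR. The cause of these differences was not tested. TMM moved the median listed gene by 0.36 at 30 min and by -0.40 at 180 min, and centring by 0.69 and -0.19.

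With each goat left out in turn, 5 to 18 genes were called higher and 0 to 2 lower at 30 min and 42 to 513 higher and 6 to 242 lower at 180 min. Of the 7 genes, 1 to 4 were called at 30 min (1 without goat 21 or 24) and 1 to 3 of 3 at 180 min (1 without goat 15 or 16 or control goat 1, 4, 6 or 8). The log2 fold change at 30 min ran from 0.73 to 1.02 for *TSC22D3*, 1.08 to 1.44 for *SGK1*, 1.45 to 1.76 for *DDIT4*, 0.82 to 1.21 for *TXNIP*, 0.66 to 1.00 for *BTG1*, 0.55 to 0.80 for *PRDM1* and 1.49 to 1.82 for *NFKBIA*. At 180 min it ran from 1.06 to 1.70 for *SGK1*, 1.41 to 1.70 for *DDIT4* and 0.74 to 1.18 for *PRDM1*. The difference of 180 min minus 30 min ran from -0.71 to 0.036 for *SGK1*, where leaving out goat 10 reversed it, from -0.21 to -0.012 for *DDIT4* and from 0.0091 to 0.35 for *PRDM1*. No paired analysis was possible because no number in the labels is shared between groups. The planned promoter motif search was not run.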
